A study of Mus musculus with 15 samples.

Results

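Mouse counterparts of 9 genes mutated in human acute myeloid leukaemia (AML) were followed through exon arrays of leukaemic mouse spleens. The disease was acute promyelocytic leukaemia (APL), in which neutrophil precursors stop maturing as promyelocytes. The genes were Npm1, Dnmt3a, Idh1, Idh2, Nras, Trp53, Wt1, Asxl1 and Nf1. A probeset, the set of probes that reads 1 stretch of a transcript, was taken for a gene when that gene was its only annotated symbol. This gave 160 of 229581 probesets and 7 of the 9 genes, among 16277 genes in all; Trp53 and Asxl1 had no such probeset and were not analysed here. The series held 15 arrays, 1 for each of 15 tumours named by number, all from spleens of Bl/6 Taconic mice and all in 1 group. The labels give no leukaemia transgene, age or treatment, and healthy spleen was not analysed here. Nothing in the labels ties each tumour to an animal of its own, so a p-value measures only the spread between these 15 arrays, which may be partly technical. A gene's level is the log2 intensity, taken as the median over its probesets, and errors are SDs over the 15 tumours. A level on this platform depends on each probe's own brightness, so levels are compared between tumours within a gene and not between genes.

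These genes act in several pathways that AML mutations touch. Dnmt3a writes DNA methylation, and mutant forms of the isocitrate dehydrogenases Idh1 and Idh2 produce 2-hydroxyglutarate, a metabolite that blocks the removal of DNA methylation. Nras is a small GTPase that signals growth while bound to GTP, and Nf1 (neurofibromin) switches Ras proteins off, so that loss of NF1 in human leukaemia has an effect like activation of RAS. Npm1 is a nucleolar chaperone of ribosome assembly, Wt1 a zinc finger transcription factor, Trp53 the p53 tumour suppressor, and Asxl1 a cofactor of the Bap1 histone deubiquitinase. The arrays measured RNA level and carry no information on mutations.

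Arrays tumor_9509 and tumor_9514 stood apart from the rest. Over the 9766 genes whose mean exceeded the detection limit of 6.41 (the 40th percentile of gene means), these arrays correlated with each other at r = 0.95 and with any other array at no more than 0.90, while the other 13 correlated with each other at 0.91 to 0.97. Median intensities of the 15 arrays lay between 108 and 129, with tumor_9509 and tumor_9514 both at 108. Both arrays were below all other 13 for 24.6% of the 9452 genes that were detected with at least 3 probesets. Results that rest on these arrays are given with and without them, and no limma call across genes held without them. The promyelocyte markers Mpo, Ctsg, Prtn3 and Ms4a3 were all detected, with means of 12.91, 12.20, 8.64 and 11.46. Their mean level was 10.82 in tumor_9509, the lowest of 15, and 11.01 in tumor_9514, the second lowest, against 11.03 to 11.60 in the other 13 tumours. Taken singly, Ctsg was lowest in tumor_9509, but Mpo, Prtn3 and Ms4a3 were lowest in tumor_9504, tumor_9523 and tumor_31. The mean of the red pulp macrophage markers was also lowest in tumor_9509 and tumor_9514, at 6.24 (below the limit) and 6.49, against 6.59 to 7.64 in the other 13. The erythroid markers were near the top, at 7.89 and 8.04, against 6.77 to 8.12. Of markers of other spleen cells, 3 of 5 B cell, 4 of 5 T cell, 4 of 5 erythroid, 5 of 7 red pulp macrophage and 2 of 6 mesothelium markers were above the limit. The mean level of a list takes in all its measured markers, also those below the limit. In whole spleens, fewer cells of a type and less RNA per cell cannot be told apart.

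All 7 measured genes had a mean above the detection limit. The isocitrate dehydrogenases varied most: Idh1 and Idh2 had SDs of 0.55 and 0.58, against a median SD of 0.29 over detected genes. Of the 7 genes, 2 had an SD above 0.5, and 10.8% of detected genes with at least 3 probesets did. Over the 13 tumours without tumor_9509 and tumor_9514, 0 of 7 had an SD above 0.5 (6.02% of genes). The lowest tumour lay at least 1 log2 unit below the median for 2 of 7 genes, again Idh1 and Idh2, against 15.4% of genes. Without those arrays it did so for 0 of 7. No share of all genes is given for that count, so it need not be particular to the 7 genes. No gene of the 7 had a tumour at least 1 log2 unit above its median (5.7% of genes).

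**Figure D1:**
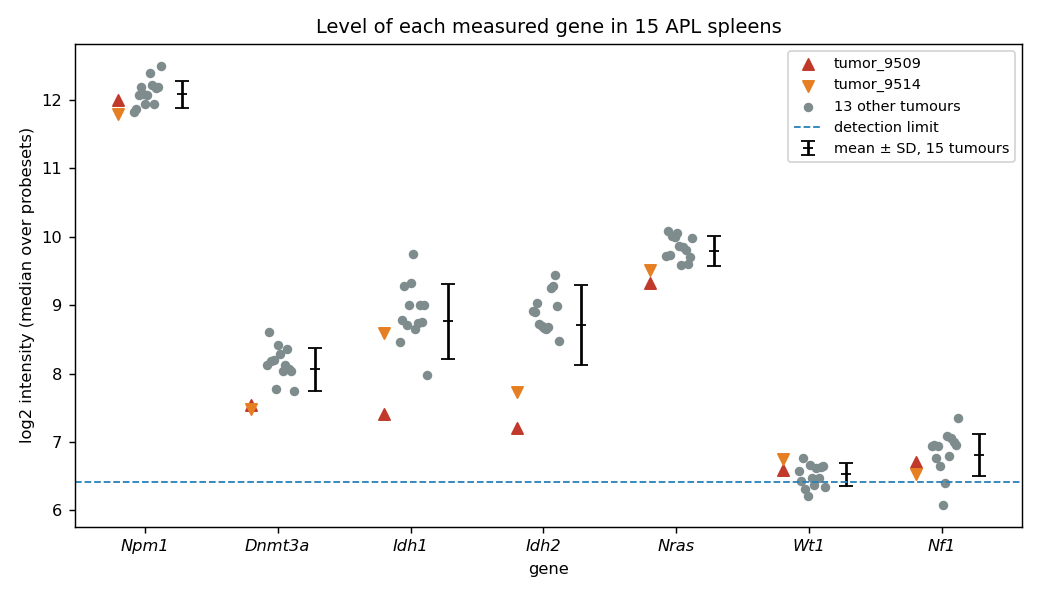
Level of the 7 measured genes (log2 intensity, median over probesets) in tumor_9509, tumor_9514 and the 13 other tumours, with the mean and SD over 15 tumours as a bar. The Idh2 values of tumor_9509 (7.21) and tumor_9514 (7.73) lie below those of all other tumours, and the dashed line is the detection limit.

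Idh2, the mitochondrial NADP-dependent isocitrate dehydrogenase, averaged 8.71 ± 0.58 (SD, n = 15). Its level was 7.21 in tumor_9509 and 7.73 in tumor_9514, against a lowest level of 8.48 and a highest of 9.43 in the other 13 tumours. The arrays that stood apart therefore did not overlap the rest for this gene, as for the 24.6% of genes given above. Over all genes, tumor_9509 was at least 1 log2 unit below the median in 8.17%, and it was the lowest tumour in 23.8%; tumor_9514 was the lowest in 21.7%. The low mean levels of the promyelocyte and macrophage lists given above fell in the same arrays. Across tumours Idh2 had r = 0.75 with the promyelocyte list (0.38 over 13 tumours) and 0.66 with the macrophage list (0.09 over 13). The part of these lists in the Idh2 level was not tested. After quantile normalization the distance of Idh2 from the median was -1.26 in tumor_9509 and -0.71 in tumor_9514. Without them the SD of Idh2 was 0.29, and the median SD of detected genes was 0.25. At the upper end, tumor_9508 was above the median in 14 of 14 probesets and the highest tumour in 5.

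The 14 Idh2 probesets did not fall by the same amount. In tumor_9509, 10 of 14 lay at least 1 log2 unit below their own median over 15 tumours, and in tumor_9514, 11 of 14 did. The largest distance in tumor_9509 was that of probeset 4818311, which read 6.82 there against a median of 9.90, and in tumor_9514 that of probeset 5430946, 5.86 against 8.53. Probeset 4458650, by contrast, read 8.34 in tumor_9509 and 8.24 in tumor_9514, against a median of 8.32. That probeset varied little in any tumour, between 8.04 and 8.50. Probeset 5482919 was also within 0.2 log2 units of its median in both arrays (-0.17 and -0.13), and its highest level was 7.96 in tumor_9520. The exon that each probeset reads was not given in the files used here, so these probesets cannot be placed along the transcript.

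Idh1, the cytosolic form of the enzyme, averaged 8.76 ± 0.55 (SD, n = 15). Its lowest level was 7.40 in tumor_9509, its median 8.76 and its highest 9.74 in tumor_36. The second lowest was 7.98 in tumor_9529, and tumor_9514 stood at 8.59. The low Idh2 level of tumor_9514 thus came with an Idh1 level close to the median (a distance of -0.16). In tumor_9509, 10 of 11 Idh1 probesets were below their medians and 7 were the lowest of 15 tumours, while probeset 4672043 was 0.12 above its median. In tumor_36 all 11 probesets were above their medians by 0.66 to 1.12, and 10 of them were the highest of 15. Few genes peaked in that tumour: it was the highest for 4.43% of these 9452 genes. The Idh1 distance from the median in tumor_36 was 0.99 both as deposited and after quantile normalization. In tumor_9529, 11 of 11 probesets were below their medians. Over the 13 tumours without tumor_9509 and tumor_9514, Idh1 kept an SD of 0.43, higher than that of 90.2% of genes, while that of Idh2 exceeded 64.4%.

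**Figure D2:**
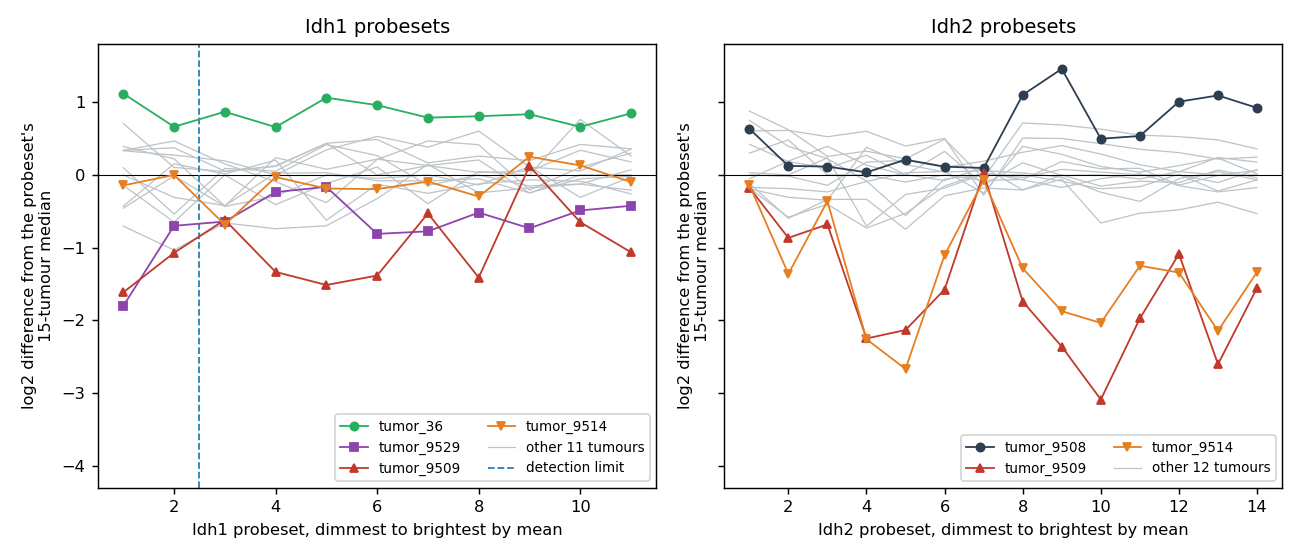
Distance of each probeset from its own median over 15 tumours (log2), for the 11 probesets of Idh1 and the 14 of Idh2, ordered from dimmest to brightest; the dashed line separates probesets below the detection limit. In Idh1, tumor_36 lies above 0 at every probeset; in Idh2, tumor_9509 and tumor_9514 lie far below 0 at most probesets and close to 0 at probeset 7 of this order, which is 4458650.

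Since these enzymes had the largest SDs of the 7 genes, the promoters RefSeq gives for them in GRCm38.p6 are printed, from 250 bases before to 50 after a transcript start and on the strand of the gene. Capitals mark GGGCGG, the GC box that Sp1 family factors bind, searched on both strands (CCGCCC on the other), with no other motif searched.
Idh1, chr1:65186430-65186729, minus strand: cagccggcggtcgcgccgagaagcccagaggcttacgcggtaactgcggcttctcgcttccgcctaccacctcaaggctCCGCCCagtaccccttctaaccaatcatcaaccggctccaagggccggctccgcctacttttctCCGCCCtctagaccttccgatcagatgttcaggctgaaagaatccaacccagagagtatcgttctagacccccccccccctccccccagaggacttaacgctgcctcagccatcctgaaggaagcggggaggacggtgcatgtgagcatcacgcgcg
Idh2, chr7:80115301-80115600, minus strand: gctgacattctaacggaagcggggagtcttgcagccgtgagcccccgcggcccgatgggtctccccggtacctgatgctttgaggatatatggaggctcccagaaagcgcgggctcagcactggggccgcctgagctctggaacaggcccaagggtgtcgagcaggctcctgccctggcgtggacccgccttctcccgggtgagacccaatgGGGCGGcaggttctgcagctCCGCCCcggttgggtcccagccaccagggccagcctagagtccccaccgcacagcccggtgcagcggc
Each promoter held 2 GC boxes, and 35.7% of the 32851 mouse promoters in the same table held at least 1. The GC content was 62% for Idh1, with 23 CpG dinucleotides, and 68.3% for Idh2, with 20, against a median GC content of 52.7% over all promoters. A match of letters is a description and not a binding site.

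Among the other enzymes that make or use isocitrate and 2-oxoglutarate, 10 of 13 listed genes were measured, all above the limit. Idh3g, a subunit of the NAD-dependent isocitrate dehydrogenase, averaged 10.91 ± 0.30, and citrate synthase (Cs) 9.94 ± 0.45. In limma fits of each gene on the level of Idh2 over 15 tumours, 3 of the 9 other genes of the list rose with Idh2 and none fell, with 9.03% of all 9765 genes rising. These were Aco1 (aconitase, r = 0.82, adjusted p = 0.018), Cs (r = 0.81, adjusted p = 0.013) and Dlst (a subunit of the 2-oxoglutarate dehydrogenase complex, r = 0.76, adjusted p = 0.028). Without tumor_9509 and tumor_9514 their r was 0.62, -0.38 and -0.18, and none passed. The median r of the 9 genes with Idh2 was 0.67 over 15 tumours, against 0.26 for all genes, and -0.23 without tumor_9509 and tumor_9514. With Idh1, 0 of 9 passed by limma (1.18% of genes passed in either direction), at a median r of 0.44 over 15 tumours and -0.09 over 13.

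Dnmt3a, which places new methyl groups on DNA, averaged 8.06 ± 0.31 (SD, n = 15). Its lowest level was 7.49 in tumor_9514, followed by 7.54 in tumor_9509; its median was 8.12 and its highest level 8.61 in tumor_31. Again tumor_9509 and tumor_9514 were below all other tumours, of which the lowest was tumor_9529 at 7.74. Both arrays were below the rest for 24.6% of genes. This order did not hold after quantile normalization. There tumor_9529 was lowest at 7.67, with tumor_9514 at 7.70, tumor_9500 at 7.71 and tumor_9509 at 7.77. The 33 probesets were uneven in tumor_9509 and tumor_9514. In tumor_9514 probeset 5421207 stood at a distance of -2.22 from its median and 5613482 at 0.66. In tumor_9509 probeset 5505365 stood at -2.20 and 4840563 at 0.66. In tumor_31, in contrast, 30 of 33 probesets were above their medians and 17 were the highest of 15. The largest distance from a median there was 1.02, at probeset 5335149, whose mean is below the detection limit. Among probesets above the limit it was 0.89. Tumor_31 was the highest tumour for 13.4% of detected genes.

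Of 10 listed genes that write, maintain or remove DNA methylation, 8 were measured and all were above the limit. Dnmt1, the maintenance methyltransferase, averaged 9.66 ± 0.50, from 8.67 in tumor_9514 to 10.42 in tumor_9529. Uhrf1, which guides Dnmt1 to newly copied DNA, averaged 8.49 ± 0.34, and Mbd4, a glycosylase of mismatches at CpG sites, 7.23 ± 0.46. Of the 7 genes besides Dnmt3a, 1 rose with Dnmt3a by limma and none fell, with 3.38% of all genes rising: Tdg, the glycosylase that excises oxidised methylcytosine (r = 0.74, adjusted p = 0.045, and r = 0.45 over 13 tumours, where it did not pass). The median r of the 7 was 0.47 over 15 tumours and 0.16 over 13.

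Nras averaged 9.79 ± 0.22 (SD, n = 15), from 9.33 in tumor_9509 through a median of 9.81 to 10.08 in tumor_31. The second lowest tumour was tumor_9514 at 9.51 and the third lowest tumor_29 at 9.59. As deposited, the arrays that stood apart thus lay below the rest, by a margin smaller than the SD. Both arrays lay below the rest for 24.6% of genes. After quantile normalization tumor_29 (9.53) and tumor_9508 (9.57) were lowest, with tumor_9509 at 9.62 and tumor_9514 at 9.75. In tumor_9509 and tumor_9514, 9 of 10 and 10 of 10 probesets were below their medians. In these arrays no probeset above the detection limit was 1 log2 unit down; the largest distance was -0.95 (probeset 5016553 in tumor_9509). The SD of Nras exceeded that of 25.9% of genes over 15 tumours and 16.7% over 13.

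Nf1, the Ras-GTPase activating protein, averaged 6.81 ± 0.31 (SD, n = 15). Its lowest level was 6.08 in tumor_9492, its median 6.94 and its highest 7.34 in tumor_9529. The second lowest tumour was tumor_36 at 6.40, and both were below the detection limit, so the size of the drop is uncertain. The gene level of tumor_9492 lay -0.86 from the median, and -0.81 after quantile normalization. The median distance of its probesets was smaller, -0.58 over all 64 and -0.46 over the 40 with a mean above the limit. Tumor_9492 was the lowest tumour for 3.23% of the 9452 genes, and lay at least 0.5 log2 units below the median in 4.17% of them. Tumor_9492 was among the 13 arrays that correlated with each other at 0.91 to 0.97.

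The low reading in tumor_9492 was seen in most Nf1 probesets, whose places along the gene are not known. Of 64 Nf1 probesets, 60 were below their own medians in that tumour and 20 were the lowest of 15. Of the 40 probesets with a mean above the detection limit, 39 were below their medians, by a median of 0.46 log2 units. The distances were unequal: 6 of these 40 were at least 1 log2 unit down, the largest being probesets 4904732 (6.93 against a median of 8.62) and 4436693 (5.97 against 7.66). Others barely moved, such as 4920835 at 8.96 against 9.03 and 5130908 at 7.71 against 7.67. In tumor_29 and tumor_9529 the gene lay at the upper end, with 57 and 54 of 64 probesets above their medians.

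**Figure D3:**
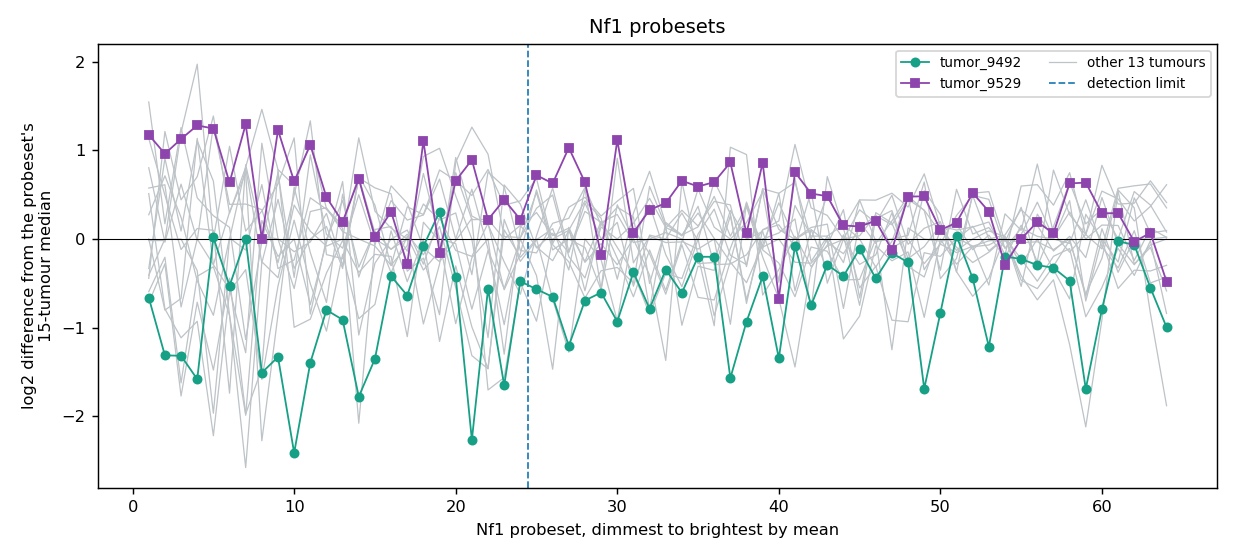
Distance of each of the 64 Nf1 probesets from its own median over 15 tumours (log2), ordered from dimmest to brightest, with tumor_9492 and tumor_9529 in colour and the other 13 tumours in grey. Tumor_9492 lies below 0 in 60 of 64 probesets, and the dashed line separates the probesets below the detection limit.

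The genes next to Nf1 on chromosome 11 did not share the low level of tumor_9492. The median distance of the 20 detected genes on each side was 0.03 in that tumour, against -0.86 for Nf1. Among the nearest detected genes by order in the GRCm38.p6 gene table, Evi2a, which lies within an intron of Nf1, was at 0.03 and Evi2b, which lies there too, at -0.07. Wsb1 was at -0.38 and Lgals9 at 0.58; these neighbours were looked up after the level of Nf1 was seen. Of the 6 marker lists, 3 were also extreme in this tumour. The B cell list was at its lowest mean level (6.26, against 6.68 to 7.88 in the other tumours). The erythroid list was at its highest (8.12, against 6.77 to 8.04). The mesothelium list was also at its highest (6.35, against 5.96 to 6.27), but its mean was below the detection limit of 6.41 in all 15 tumours. The B cell mean of 6.26 was below that limit too, so both places are uncertain. Across tumours the r of the B cell, erythroid and mesothelium lists with Nf1 was 0.30, -0.34 and -0.28. It was 0.15 for the promyelocyte and -0.01 for the T cell list. The red pulp macrophage list stood at 6.59 in tumor_9492, the lowest of the 13 tumours without tumor_9509 and tumor_9514. Its r with Nf1 was 0.59 (0.63 over 13 tumours). The part of these lists in the Nf1 level was not tested.

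Of 23 listed Ras switches, Ras regulators and effector kinases, 16 were measured and all were above the limit. Spred1 and Spred2, which bring neurofibromin to the membrane, varied most: Spred2 averaged 8.10 ± 0.84, from 6.00 in tumor_9509 to 8.98 in tumor_9529, and Spred1 7.04 ± 0.57, from 5.98 in tumor_36 to 8.18 in tumor_9523. Cbl, a ubiquitin ligase of receptor kinases, averaged 8.88 ± 0.39. By limma, 2 of the 15 genes besides Nras rose with Nras and none fell (5.29% of all genes rose): Sos1, which loads Ras with GTP (r = 0.77, adjusted p = 0.026), and Araf, a Raf kinase (r = 0.77, adjusted p = 0.042). Over 13 tumours their r was 0.70 and 0.51 and neither passed; the median r of the 15 genes was 0.54 over 15 tumours and 0.24 over 13. With Nf1, 0 of 15 passed (0.266% of genes passed in either direction). Of 10 genes that ERK signalling is known to induce, 8 were above the limit and 0 passed with either Nras or Nf1. Dusp6, the ERK phosphatase, averaged 8.08 ± 0.52, from 7.01 in tumor_9508 to 9.04 in tumor_31, and Spry2, an inhibitor of receptor kinase signalling, 7.95 ± 0.49.

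Npm1 averaged 12.08 ± 0.20 (SD, n = 15), from 11.79 in tumor_9514 through a median of 12.08 to 12.50 in tumor_9529. Its spread was narrow, and tumor_9509 lay in the middle at 11.99. The dimmest probeset, 5020024 (mean 8.09), had an SD of 0.62. SDs of the other probesets, with means of 11.37 to 13.20, lay between 0.11 and 0.37. The part of probe brightness in this narrow spread was not tested. In tumor_9529 all 12 probesets were above their medians and 10 were the highest of 15. In tumor_9504, tumor_31 and tumor_9492 all 12 were below. The probeset farthest from its median in both high tumours was 5020024, which was 1.13 above its median in tumor_9529 and 1.10 above in tumor_29. Tumor_9529 was the highest tumour for 13% of detected genes.

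The genes most like and most opposed to Npm1 were picked by r over 15 tumours. These include the 13 without the arrays that stood apart, so the r over 13 is no separate support. The 5 genes of highest r with Npm1 were Taf1d (0.92), Cnot1 (0.92), Hsp90aa1 (0.90), U2surp (0.89) and Golga4 (0.87), and over 13 tumours their r lay between 0.86 and 0.93. Taf1d belongs to the factor that recruits RNA polymerase I, Cnot1 is the scaffold of the CCR4-NOT deadenylase and Hsp90aa1 a heat shock chaperone. The 2 genes of lowest r were Pstpip2 (-0.93, and -0.91 over 13 tumours) and Wnt7b (-0.91, and -0.90). Pstpip2, a myeloid cytoskeletal adaptor, was 6.83 ± 0.25 on average. Without tumor_29 and tumor_9529, the tumours farthest from the Npm1 median, r was 0.84 for Taf1d and -0.88 for Pstpip2. All 7 passed in the limma fit over 15 tumours (adjusted p at most 0.022), and none over 13.

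Of 12 listed nucleolar and Npm family genes, 10 were measured and 9 were above the limit; Npm2, mainly known from oocytes, was below it at 5.83 ± 0.24. By limma, 2 of the 8 other genes rose with Npm1 and none fell (1.83% of all genes rose). These were nucleolin (Ncl, 11.73 ± 0.28, r = 0.76, adjusted p = 0.048) and the small nucleolar RNP protein Nop58 (9.25 ± 0.56, r = 0.83, adjusted p = 0.010). Over 13 tumours their r was 0.70 and 0.82, and neither passed. Nop58 and Npm1 were both highest in tumor_9529 and Nop56, the partner of Nop58, in tumor_9523 (9.42 ± 0.57 on average). The median r of the 8 genes was 0.49 over 15 tumours and 0.35 over 13, against 0.08 for all genes over 15.

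**Figure D4:**
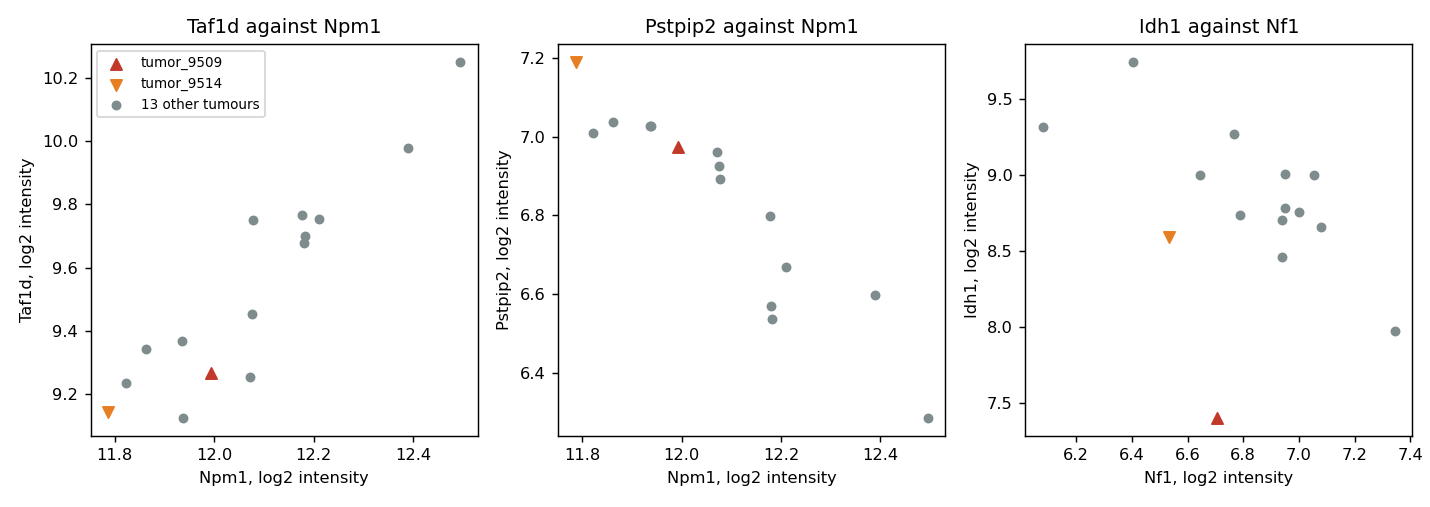
Levels (log2 intensity) of Taf1d and of Pstpip2 against Npm1, and of Idh1 against Nf1, with 1 point for each of 15 tumours. Taf1d is higher and Pstpip2 lower where Npm1 is higher; tumor_9509 has the lowest Idh1 level at a middle Nf1 level.

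Wt1 averaged 6.52 ± 0.17 (SD, n = 15), 0.11 above the detection limit, from 6.21 in tumor_9500 through a median of 6.58 to 6.77 in tumor_9495. In 4 tumours it was below the limit. Its probesets did not vary together: the means of odd- and even-ranked probesets correlated at r = 0.39 across tumours, against 0.85 to 0.98 for the other 6 genes. With the mean over probesets in place of the median, Wt1 fell below the limit. Its order of tumours is therefore uncertain, also where other genes are set against it.

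Trp53 and Asxl1 were not analysed here, and genes around them are given as levels only. Of 24 listed p53 target genes 23 were measured and 19 were above the limit, 6 of them with an SD above 0.5 over 15 tumours and 6 over 13, against 10.8% and 6.02% of genes. Ccng1 (cyclin G1) averaged 10.77 ± 0.27 and Ei24 9.85 ± 0.20, while Perp, a membrane protein of cell adhesion, ranged from 6.74 in tumor_9523 to 10.17 in tumor_33 and Gadd45a, a stress response gene, from 7.96 in tumor_9520 to 11.06 in tumor_31. Of 10 listed Asxl family and Bap1 complex genes, 6 were measured, all above the limit and none with an SD above 0.5. Ogt, the O-GlcNAc transferase, averaged 8.82 ± 0.32, Hcfc1 8.79 ± 0.42 and Bap1 8.16 ± 0.36; Hcfc1 was lowest in tumor_9514 (7.71) and Bap1 in tumor_9509 (7.22).

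Of 23 listed counterparts of other genes mutated in AML, 21 were measured and 20 were above the limit. An SD above 0.5 was found for 4 over 15 tumours and 1 over 13, against 10.8% and 6.02% of genes. The splicing factor Srsf2 averaged 10.85 ± 0.29 and the cohesin subunit Rad21 10.83 ± 0.43. The transcription factors Etv6 and Runx1 had the largest SDs: Etv6 ranged from 8.69 in tumor_9509 to 10.69 in tumor_29, and Runx1 from 7.87 in tumor_9529 to 9.68 in tumor_36, the tumour in which Idh1 was highest. By limma, 1 of the 20 rose with Npm1 (1.83% of all genes rose), which was Kit, the stem cell factor receptor (r = 0.81, and 0.76 over 13 tumours). With Nras 2 rose (5.29% of all genes rose), Bcor (0.72 and 0.45) and Etv6 (0.69 and 0.27). The cohesin subunit Stag2 fell with Idh2 (-0.79 and -0.56; 0.236% of genes fell). No other gene of the 20 passed with any of the 7, and over 13 tumours none passed.

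A loss of part of a gene in a single tumour was looked for as at least 3 adjacent probesets, in identifier order, each 1 log2 unit or more below their median after the shift of the whole gene was taken off. This held for 0 of 7 genes, against 0.794% of 8563 genes with at least 6 probesets above the limit, and again for 0 of 7 without tumor_9509 and tumor_9514 (0.0934% of genes). Adjacent here means next in order among the gene's own probesets above the limit. Identifier order was found to carry no position: over the whole array only 0.0115% of probesets next to each other in it shared a gene. The rule therefore could not find the loss of a stretch, and no conclusion is drawn from the 0 of 7. Without the demand that probesets be adjacent, 2 of 7 genes met the rule, against 10.4% of genes. These were Dnmt3a in tumor_9509 and tumor_9514 and Nf1 in tumor_9509 and tumor_9492. Idh2 did not meet it: in tumor_9509 and in tumor_9514 only 1 probeset was that far below the rest of the gene, and the rule asks for 3. Probesets above the rest of the gene, such as 4458650 in these arrays, are not counted by the rule.

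Whether a gene moved with its stretch of chromosome was asked by correlating it with the median of the 20 detected genes on each side. Idh2 on chromosome 7 (r = 0.79, adjusted p = 0.0089), Dnmt3a on chromosome 12 (r = 0.72, adjusted p = 0.017, with 25 neighbours) and Nras on chromosome 3 (r = 0.71, adjusted p = 0.017) passed in a permutation test with Benjamini-Hochberg adjustment over all genes. This share of 3 in 7 stood against 27% of 9739 genes, with a median r of 0.39 over all genes. Without tumor_9509 and tumor_9514, r was 0.23 for Idh2, 0.57 for Dnmt3a and 0.58 for Nras and none passed. Of all genes, 293 passed without these arrays, against 2679 with them. In tumor_9509 the neighbours of Idh2 lay at -0.25 and Idh2 at -1.52. In tumor_36 Idh1 was at 0.99 and its neighbours on chromosome 1 at 0.02; in tumor_9529 Idh1 was at -0.78 and the same neighbours at 0.20. Npm1 and Nf1, both on chromosome 11, had r of 0.46 and 0.32 with their own neighbours, and neither passed. The calls depended on the gene summary: with the mean over probesets Dnmt3a no longer passed (r = 0.55, adjusted p = 0.079, permutation test) and Nf1 did (r = 0.61, adjusted p = 0.048). With that summary 3674 of all genes passed, against 2679 with the median.

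The 7 genes formed 21 pairs, none of which passed by limma with adjustment over all genes, and 5 of which had an unadjusted permutation p under 0.05. The other 4 were Dnmt3a with Idh1 (r = 0.62 over 15 tumours and 0.46 over 13), Dnmt3a with Nras (0.59 and 0.23), Npm1 with Nf1 (0.51 and 0.46) and Idh1 with Idh2 (0.58 and 0.07). The highest r was that of Dnmt3a with Idh2 (Pearson r = 0.69, permutation p = 0.0042, Spearman rho = 0.41, permutation p = 0.13). Its limma adjusted p was 0.051 with Idh2 fitted on Dnmt3a and 0.071 with Dnmt3a fitted on Idh2. Tumor_9509 and tumor_9514 were the tumours farthest from the Dnmt3a median, and without them r was 0.22, so that this relation rested on them. Idh2 with Nras changed sign (0.46 over 15 tumours and -0.49 over 13). Over 13 tumours, Idh1 and Nf1 were opposed (Pearson r = -0.78, permutation p = 0.0022, Spearman rho = -0.66, permutation p = 0.016), as were Npm1 and Dnmt3a (r = -0.68, permutation p = 0.0099, rho = -0.73, permutation p = 0.0059). Neither passed by limma over 13 tumours (adjusted p = 0.26 and 0.37), and over all 15 r was -0.45 and -0.15. Leaving out also the 2 tumours farthest from the Idh1 or Npm1 median, r was -0.65 and -0.54. The pairs over 13 tumours were picked out after their values were seen.

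**Figure D5:**
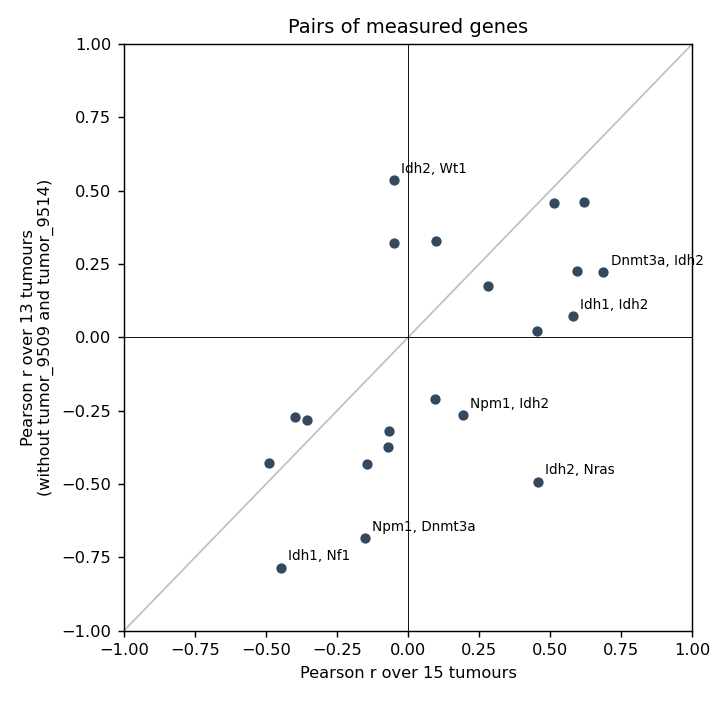
Pearson r of each of the 21 pairs of measured genes over all 15 tumours (horizontal) and over the 13 tumours without tumor_9509 and tumor_9514 (vertical), with equality as the grey diagonal. Idh1 with Idh2 is at 0.58 and 0.07, and Idh1 with Nf1 at -0.45 and -0.78.

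Each gene was also set against all 9765 other detected genes in limma. Idh2 had the most companions, with 882 genes rising with it (9.03%) and 23 falling (0.236%), or 9.27% in all. Nras followed with 517 rising (5.29%) and 3 falling (0.0307%), 5.33% in all, and Dnmt3a with 330 rising (3.38%) and 1 falling (0.0102%), 3.39% in all. Npm1 had the most genes that fell, 36 (0.369%), beside 179 that rose (1.83%), 2.2% in all. Idh1 had 107 rising (1.1%) and 8 falling (0.0819%). Few genes varied with the genes nearest the detection limit: 17 rose (0.174%) and 9 fell (0.0922%) with Nf1, and 5 rose (0.0512%) and 13 fell (0.133%) with Wt1, 0.184% in all. The split between rising and falling genes moved with the scaling: after quantile normalization 91 rose and 19 fell with Idh2, 13 and 7 with Npm1, 3 and 1 with Idh1, 1 and 1 with Dnmt3a, 1 and 1 with Wt1, 1 and 2 with Nf1, and 0 and 0 with Nras. Without tumor_9509 and tumor_9514 limma gave 0 calls for each of the 7, with 660 to 1435 genes at an unadjusted p under 0.05 and a lowest adjusted p of 0.20. The median r of all genes with Idh2 was 0.26 over 15 tumours and -0.03 over 13.

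The closest companions of each gene were picked by r over 15 tumours, which is given first. The r over 13 of these same tumours follows and is no separate support. Of the genes named here, Ccdc63, Tbx19, Vwf, Tomm7, Caskin2, Grid2ip and 2610028H24Rik did not pass in limma over 15 tumours (adjusted p 0.062 to 0.23), and none passed over 13. For Idh2 they were Rpl8 (a ribosomal protein, 0.94 and 0.78), Mfsd3 (0.94 and 0.78), Gne (a sialic acid enzyme, 0.93 and 0.71), Mpnd (0.93 and 0.80) and Atp5d (a subunit of ATP synthase, 0.93 and 0.62). The genes opposed to Idh2, Spsb2 (-0.87 and -0.34) and Ly6g5b (-0.84 and -0.38), lost most of their r without the 2 arrays. For Idh1 they were Bcorl1 (0.87 and 0.80), Cask (0.85 and 0.80), Kctd20 (0.85 and 0.79), Tmem38b (0.84 and 0.84) and Arpp19 (0.84 and 0.67), with Tbx19 (-0.77 and -0.60) and Ten1 (-0.76 and -0.72) at the other end. For Dnmt3a they were Zfp592 (0.92 and 0.83), Wasf2 (an actin regulator, 0.90 and 0.82), 4833439L19Rik (0.88 and 0.75), Dcakd (0.88 and 0.73) and Hgs (0.87 and 0.72), against Nfe2l3 (-0.80 and -0.65) and Ccdc63 (-0.79 and -0.66).

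For Nras the closest were Mrtfa (a coactivator of serum response factor, 0.93 and 0.86), Med15 (a Mediator subunit, 0.92 and 0.86), Rcor3 (0.92 and 0.85), Anxa7 (0.92 and 0.84) and Tkt (transketolase, 0.90 and 0.83), and the most opposed Vwf (-0.86 and -0.80) and Tomm7 (-0.81 and -0.78). For Nf1 they were Ctsc (cathepsin C, which activates neutrophil proteases, 0.81 and 0.80), Ipo11 (0.78 and 0.78), Nop14 (0.78 and 0.85), Itga6 (an integrin, 0.77 and 0.87) and Spink2 (0.77 and 0.77), against AW209491 (-0.84 and -0.92) and Myod1 (-0.79 and -0.79). AW209491 fell to -0.58 when tumor_9492 and tumor_36 were left out. For Wt1, whose probesets disagreed, the closest were Cmc2 (0.82), Caskin2 (0.80), Grid2ip (0.80), Chil4 (0.78) and 2610028H24Rik (0.77) and the most opposed Myo5a (-0.82) and Anxa6 (-0.81), over 15 tumours.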

How the data were processed

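The authors deposited 1 linear intensity per probeset for each of 15 Affymetrix Mouse Exon 1.0 ST arrays; the submitters' processing notes name RMA and mm9 with no version. The scale was read from the values, whose array medians lay between 108 and 129; 15 arrays in 1 group limit the precision. Of 229581 probesets, 208397 had 1 symbol, 3965 several and 17219 none. A GRCm38.p6 table (names and gene order only) held 14132 of 16299 symbols, gave new names for 2124 and lacked 43. Intensities were turned to log2 and each gene took the median of its probesets.

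All detected genes were fitted on the level of each of the 7 measured genes with limma 3.58.1 (R 4.3.3), with Benjamini-Hochberg adjustment over all fits together and a threshold of 0.05; permutation tests were two-sided, with 100000 resamples (numpy 2.4.6). Simulated data of 9766 genes, drawn independently of each other, held genes planted to vary with Idh2. Of these, 88 of 100 planted at r = 0.95 and 40 of 100 at r = 0.8 were called. The 68155 other tests over all 7 fits gave 8 calls. No simulated array stood apart, so this rate of false calls need not carry over to these data. The genes and lists were chosen with earlier results of these data known. The rule named all 9 genes, for each the 5 genes of highest and the 2 of lowest r with at least 3 probesets, and per list the 2 of highest mean and the 2 of largest SD; others named passed a test, lie next to Nf1 or mark promyelocytes, and Npm2 was chosen after its values were seen. Alternatives were another gene summary, probesets above the 25th percentile, quantile normalization, no filter on dim genes, other tests, 10 neighbours on each side, steps of 0.75 log2 units and leaving out tumor_9509 and tumor_9514. No scan date or detection call was used here.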

Additional observations from a re-analysis of the deposited data

How the results depend on the processing

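No paired analysis was possible because all tumours form 1 group. The number of genes that vary with each gene moved by over 1.5 times in most settings. With the mean over probesets it was 507 for Npm1, 1442 for Dnmt3a, 214 for Idh1, 1970 for Idh2, 1038 for Nras and 100 for Nf1, and Wt1 fell below the limit and was not fitted. With probesets above the 25th percentile it was 680 for Dnmt3a, 9 for Wt1 and 56 for Nf1. After quantile normalization it was 20 for Npm1, 2 for Dnmt3a, 4 for Idh1, 110 for Idh2, 0 for Nras (limma, with 520 genes at an unadjusted p under 0.05), 2 for Wt1 and 3 for Nf1. With no filter on dim genes it was 117 for Npm1, 132 for Dnmt3a, 50 for Idh1, 562 for Idh2, 273 for Nras and 15 for Nf1, with more genes tested. With a permutation test of r in place of limma it was 59, 61, 20, 108, 145, 2 and 2 for Npm1, Dnmt3a, Idh1, Idh2, Nras, Wt1 and Nf1. Without tumor_9509 and tumor_9514 it was 0 for each (limma). Apart from the number of arrays or genes tested, the cause was not tested.

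The 2 genes with an SD above 0.5 and the 2 with a low tumour were 1 and 1 with the mean over probesets and 0 and 0 without those arrays. With a step of 0.75 log2 units 1 gene, Idh1, had a high tumour and 3, Nf1 added, had a low one. A share of all genes is given only for an SD above 0.5 without those arrays (6.02%). These changes therefore need not be particular to these genes. Partial loss was met by 2 genes with any 3 probesets. Dnmt3a also lost its call with its neighbours with probesets above the 25th percentile (r = 0.40, adjusted p = 0.27). The 3 genes that passed with their neighbours were 0 after quantile normalization (the lowest unadjusted permutation p was 0.14) and 0 without the 2 arrays (Dnmt3a and Nras had an unadjusted permutation p of 0.039 and 0.022), and Idh1 with its neighbours changed sign there (r = -0.21). Of the 21 pairs, 1 passed with the mean over probesets and 1 with probesets above the 25th percentile. Each time it was Dnmt3a with Idh2 (adjusted p = 0.019 and 0.015 by limma, with Idh2 fitted on Dnmt3a).

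Weak pairs changed sign and passed no test. Dnmt3a with Nf1 was 0.13 with the mean over probesets and 0.13 with probesets above the 25th percentile, where Npm1 with Dnmt3a was 0.050, Dnmt3a with Wt1 0.25, Idh2 with Wt1 0.20, Nras with Wt1 0.12 and Wt1 with Nf1 0.16. Npm1 with Nras was -0.30 after quantile normalization. Without tumor_9509 and tumor_9514, Npm1 with Idh2 was -0.26, Npm1 with Nras -0.21, Dnmt3a with Wt1 0.32, Idh2 with Nras -0.49 and Idh2 with Wt1 0.54. Spearman's rho of Idh2 with Wt1 was 0.15. The signal of Wt1, and of Nf1 in tumor_9492 and tumor_36, is too near the detection limit to size a drop.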
